A study of Mus musculus with 18 samples.

Results

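The genes described here encode 5 STAT transcription factors (Stat3, Stat4, Stat5a, Stat5b and Stat6) and 4 inhibitors of the SOCS family (Socs1, Socs2, Socs3 and Cish). They were chosen by gene symbol, and all 9 were found among the 15402 genes of the table and passed the filter on low values that left 13190 genes for testing. RNA was sequenced from 6 populations of CD4+ T cells that were sorted from the draining lymph nodes of female C57/BL6 Foxp3Timer Foxp3-IRES-GFP mice, 5 days after 3% oxazolone had been put on the abdominal skin. In this strain Timer protein, whose blue fluorescent form matures into a red one, reports transcription of Foxp3, and GFP marks Foxp3 expression. All mice carried both reporters and all were sensitised, so the populations share genotype and treatment, and the methods give an age of 5 to 10 weeks for such mice. The 3 replicates of a population were pools of 3 mice each, giving 18 libraries in all.

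The populations differ by their gate. Tnaive cells were CD44lo and Teff cells were CD44hi, and both lacked GFP and Timer. The other populations were GFP+ and Timer+: Pers1 with intermediate Blue and low Red, Pers2 with high Blue and high Red, PAt with low Blue and high Red, and Arrested with no Blue and intermediate Red. The labels call these de novo, maturing, mature and decaying Foxp3 expressers, in that order. Pers1 and Pers2 are called the persistent populations below, since the paper reads their Timer signal as persistent Foxp3 transcription. Foxp3 itself averaged 11.34 in Tnaive and 10.54 in Teff libraries and lay between 14.42 and 14.82 in the Timer+ populations, on the scale of all levels given here, which is log2 of normalised counts. The deposited values were already normalised and transformed, which can shrink differences of scarcely read genes, and the depth of each library is unknown. The T-cell genes Cd3e and Cd4 had population means of at least 13.66 and 14.49.

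Cytokines such as interleukin-2, interleukin-4, interleukin-6 and interleukin-12 act through receptors that carry JAK kinases. The kinases phosphorylate STAT proteins, which then enter the nucleus and switch on target genes. STAT5 carries the interleukin-2 signal that maintains regulatory T cells, STAT6 the interleukin-4 signal, STAT3 that of interleukin-6 and STAT4 that of interleukin-12. SOCS proteins and CIS, the product of Cish, are induced by STATs and damp the same receptors, so that their transcripts are widely read as a record of cytokine signalling. Transcript levels of STAT genes say nothing of phosphorylation, which was not measured in these libraries.

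STAT dimers bind the palindrome TTCNNNGAA, and STAT6 binds also a form with a longer spacer, TTCNNNNGAA. Promoter windows of 300 bases, 250 before and 50 after the RefSeq start on GRCm38.p6, were found for 8 of the 9 genes (11 windows), the exception being Socs2. The palindrome, which reads the same on both strands, occurred in the windows of Cish and Socs3 only, and the longer form in none of the 11. Of all 32851 windows, 8.3% held TTCNNNGAA, 0.457% held it at least 2 times, and 6.95% held TTCNNNNGAA. Cish held TTCCTGGAA from base 1 and TTCTTGGAA from base 12 after the start, and Socs3 held TTCTTAGAA from base -154, before it. These positions refer to the RefSeq start only: by the GENCODE spans given below, the windows of Cish and Socs3 lie within the genes. The windows of these genes are given with that of Socs1, whose levels across libraries were most like those of Socs3 among the 9 genes, and capitals mark the palindromes. They lie at chr9:107296409-107296708 (plus strand) for Cish, chr11:117969317-117969616 (minus strand) for Socs3 and chr16:10785487-10785786 (minus strand) for Socs1.
Cish: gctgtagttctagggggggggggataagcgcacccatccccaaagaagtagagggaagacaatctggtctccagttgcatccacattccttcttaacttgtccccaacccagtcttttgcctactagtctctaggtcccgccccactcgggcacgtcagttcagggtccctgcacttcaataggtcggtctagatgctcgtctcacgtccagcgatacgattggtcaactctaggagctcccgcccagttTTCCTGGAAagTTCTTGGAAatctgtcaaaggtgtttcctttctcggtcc
Socs3: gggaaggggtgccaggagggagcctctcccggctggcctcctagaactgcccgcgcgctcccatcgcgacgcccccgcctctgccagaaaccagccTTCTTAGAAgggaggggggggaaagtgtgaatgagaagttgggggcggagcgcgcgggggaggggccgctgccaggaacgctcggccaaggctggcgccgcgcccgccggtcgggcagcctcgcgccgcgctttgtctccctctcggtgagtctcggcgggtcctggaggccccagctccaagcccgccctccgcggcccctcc
Socs1: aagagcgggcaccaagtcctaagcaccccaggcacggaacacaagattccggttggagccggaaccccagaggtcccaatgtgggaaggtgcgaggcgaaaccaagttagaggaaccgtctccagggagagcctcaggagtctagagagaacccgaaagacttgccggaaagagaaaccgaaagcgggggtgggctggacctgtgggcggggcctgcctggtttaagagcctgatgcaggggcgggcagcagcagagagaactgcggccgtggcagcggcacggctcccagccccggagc
A match describes the letters of the window and no binding was measured.

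On GRCm38, in the GENCODE annotation, Cish lies on chromosome 9 at 107296026 to 107302784, Socs1 on chromosome 16 at 10782240 to 10785536, Socs2 on chromosome 10 at 95385362 to 95417180 and Socs3 on chromosome 11 at 117966079 to 117970047. Stat3 (100885098 to 100939540), Stat5a (100859351 to 100885169) and Stat5b (100780731 to 100850724) lie together on chromosome 11, Stat4 lies on chromosome 1 at 51987148 to 52107189 and Stat6 on chromosome 10 at 127642986 to 127660957. Some share bases with other genes: Cish with the opposite-strand Gm17040 (1167 bp) and Gm17041 (1459 bp), Stat6 with the opposite-strand Nab2 (40 bp), Stat4 with Gm28177 on its own strand (29929 bp) and the opposite-strand Gm3940 (432 bp), and Stat5a with the opposite-strand Stat3 (72 bp). Whether counting used strand is not given in the sources used here, so reads from such overlaps are of uncertain origin.

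The levels of the 9 genes followed different courses over the 6 populations. Socs2 and Cish were low in both Timer-negative populations and high in all 4 Timer+ populations, with a peak in PAt. Socs1, Socs3, Stat5a and Stat5b were highest in PAt and Arrested. Stat6 was lowest in the persistent populations, and Stat4 was highest in Teff. Stat3 hardly moved: its 18 values spanned 13.16 to 13.37.

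**Figure D1:**
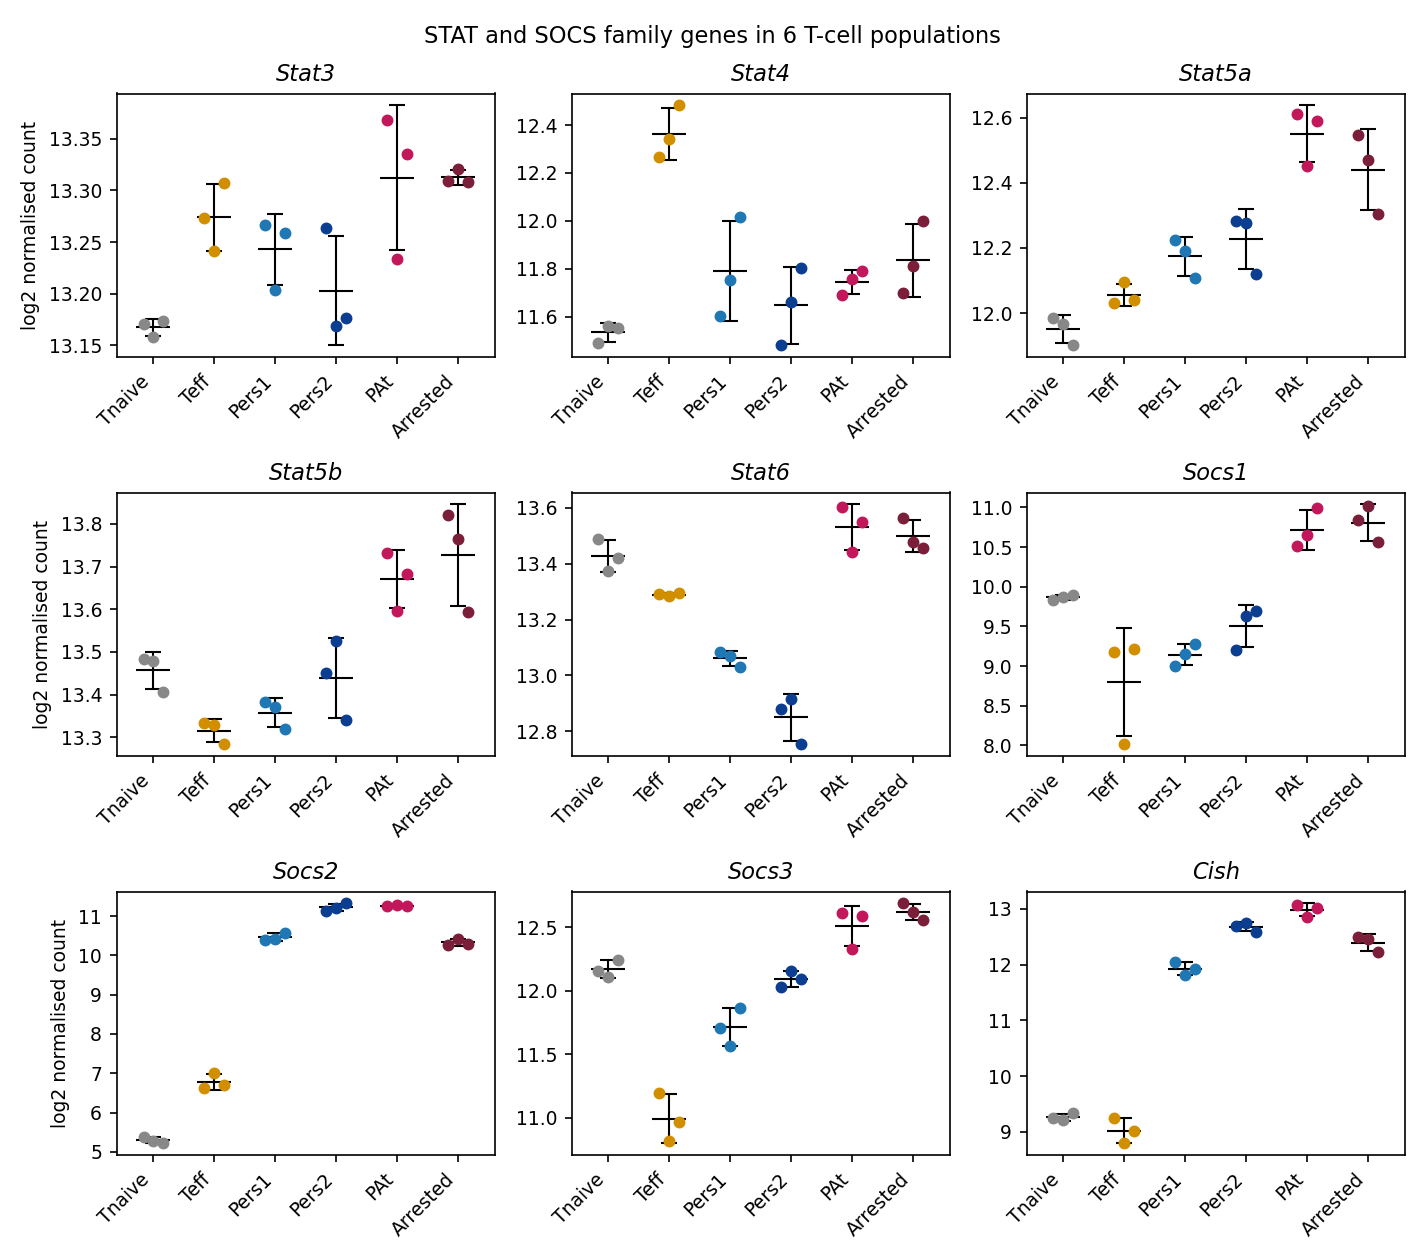
Level of each STAT and SOCS gene in the 18 libraries, in log2 of normalised counts (vertical axes, with a scale of its own in each panel), by population (horizontal axis). Points are the 3 libraries of a population, and the bar with whiskers is their mean and SD. Socs2 and Cish stand above 10 and 11 in every Timer+ library and below 8 and 10 in every Timer-negative library.

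The 4 inhibitors had the widest ranges among the 9 genes. Cish, which encodes CIS, a STAT5-induced inhibitor that acts at the interleukin-2 receptor, read 9.24, 9.22 and 9.33 in the Tnaive libraries and 9.25, 8.80 and 9.01 in the Teff libraries. It read 12.05, 11.82 and 11.92 in Pers1 and 12.69, 12.75 and 12.59 in Pers2. The values were 13.08, 12.85 and 13.01 in PAt and 12.50, 12.47 and 12.22 in Arrested. The order from the top was PAt, Pers2, Arrested, Pers1, Tnaive and Teff, and Tnaive and Teff alone overlapped among neighbours in that order. Socs2, another inhibitor induced by STAT5, which also restrains growth hormone signalling, read 5.38, 5.28 and 5.24 in Tnaive and 6.62, 6.995 and 6.70 in Teff. It read 10.40, 10.41 and 10.58 in Pers1, and 11.13, 11.21 and 11.32 in Pers2. In PAt the values were 11.27, 11.29 and 11.24, and in Arrested 10.27, 10.42 and 10.29. PAt overlapped Pers2 at the top and Pers1 overlapped Arrested, and the remaining neighbours were apart.

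Socs1, an inhibitor of JAK kinase activity downstream of interferon and interleukin receptors, read 9.83, 9.87 and 9.90 in Tnaive and 9.17, 8.02 and 9.22 in Teff. It read 9.005, 9.15 and 9.27 in Pers1 and 9.20, 9.63 and 9.69 in Pers2. In PAt it read 10.51, 10.65 and 10.99, and in Arrested 10.84, 11.02 and 10.56. Every PAt and Arrested library was above every other library, and 1 Teff library, replicate 2, lay more than 1 log2 unit below the other Teff libraries. Socs3, which binds gp130 and blocks STAT3 signalling from it, read 12.16, 12.11 and 12.24 in Tnaive and 11.20, 10.81 and 10.97 in Teff. It read 11.71, 11.57 and 11.86 in Pers1 and 12.03, 12.16 and 12.10 in Pers2. In PAt it read 12.61, 12.33 and 12.59, and in Arrested 12.69, 12.62 and 12.56. Teff was lowest with no overlap, Pers1 was next, Pers2 overlapped Tnaive, and PAt and Arrested overlapped each other above all of these.

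Among the STAT genes, Stat6 read 13.49, 13.38 and 13.42 in Tnaive and 13.29, 13.28 and 13.29 in Teff. It read 13.08, 13.07 and 13.03 in Pers1 and 12.88, 12.92 and 12.75 in Pers2. In PAt it read 13.60, 13.44 and 13.55, and in Arrested 13.56, 13.48 and 13.46. PAt, Arrested and Tnaive overlapped each other at the top, and below them Teff, Pers1 and Pers2 followed with no overlap. Stat5a and Stat5b encode the close paralogs that carry the interleukin-2 signal. Stat5a had means of 11.95 ± 0.0438 in Tnaive, 12.06 ± 0.034 in Teff, 12.17 ± 0.0601 for Pers1, 12.23 ± 0.0919 for Pers2, 12.55 ± 0.0863 for PAt and 12.44 ± 0.123 for Arrested (SD, n = 3). Stat5b had means of 13.46 ± 0.0431 in Tnaive, 13.31 ± 0.027 in Teff, 13.36 ± 0.0335 for Pers1, 13.44 ± 0.0936 for Pers2, 13.67 ± 0.0689 for PAt and 13.73 ± 0.119 for Arrested (SD, n = 3). For both genes every PAt and Arrested library lay above every other library, with a narrow gap for Stat5a (12.31 in Arrested against 12.28 in Pers2). The share of all genes with this pattern, also seen in Socs1 and Socs3, was not determined. Stat5a and Stat5b lie 8626 bp apart, and how reads common to such paralogs were counted is not given in the sources used here.

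Stat4 read 11.49, 11.56 and 11.55 in Tnaive and 12.27, 12.34 and 12.48 in Teff. It read 11.60, 11.75 and 12.01 in Pers1, and 11.48, 11.66 and 11.80 in Pers2. In PAt the values were 11.69, 11.76 and 11.79, and in Arrested 11.70, 11.81 and 11.998. Teff stood apart at the top, and every other neighbour in the order overlapped. Stat3 averaged 13.17 ± 0.0086 in Tnaive, 13.27 ± 0.0326 in Teff, 13.24 ± 0.0347 for Pers1, 13.20 ± 0.0525 for Pers2, 13.31 ± 0.07 for PAt and 13.31 ± 0.0073 for Arrested (SD, n = 3), and each population overlapped the next in order.

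The persistent populations were compared with PAt and Arrested, which asks how cells with ongoing Foxp3 transcription differ from Foxp3 expressers in which it had waned or stopped. Differences were tested by limma in 1 linear model over the 18 libraries, with p-values adjusted over all 13190 genes. A gene is said to be called where the adjusted p was under 0.05 and the log2 fold change exceeded 1 in size, and to be higher or lower by adjusted p where only the former held. In the persistent populations 7 of the 9 genes were lower by adjusted p and 0 higher, where 35.1% of all tested genes were lower and 35.9% higher by the same rule. Socs1 alone was called, and lower, where 2.77% of all genes were called lower and 4.74% higher. In 5 genes (Stat5a, Stat5b, Stat6, Socs1 and Socs3) all 6 persistent libraries lay below all 6 PAt and Arrested libraries, a pattern shown by 21.8% of all tested genes, and 0 genes showed the opposite, which 24.0% of all did. The median log2 fold change of the 9 genes was -0.30, beside -0.0135 over all tested genes.

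Socs1 was 2.71-fold lower in the persistent populations (log2 fold change -1.44, SE 0.154, adjusted p = 4.06e-08). Socs3 was lower by 0.66 log2 units (log2 fold change -0.66, SE 0.0624, adjusted p = 6e-09) and Stat6 was 1.47-fold lower (log2 fold change -0.56, adjusted p = 1.48e-11). Cish, Stat5a and Stat5b had log2 fold changes of -0.38 (adjusted p = 2.85e-05), -0.30 (adjusted p = 4.11e-06) and -0.30 (adjusted p = 1.12e-06). Stat3 differed by -0.09 (adjusted p = 0.0131). The difference of Stat4 was -0.07, with a 95% interval of -0.21 to 0.07 (adjusted p = 0.336), and that of Socs2 was 0.04, from -0.09 to 0.18 (adjusted p = 0.575), with a sign that turned when libraries were centred on their medians (-0.022) or quantile normalised (-0.0271). Markers of activated T cells moved more widely in this comparison: all 3 (Cd44, Mki67 and Icos) were higher in every persistent library (log2 of their summed level 16.17 to 16.43) than in every PAt and Arrested library (13.77 to 14.04), and 2 of 3 naive T-cell markers were lower (summed level of all 3 from 14.89 to 15.29 against 15.42 to 15.61). In bulk libraries such as these, fewer cells with a transcript cannot be told apart from less transcript per cell. Markers of other cell types moved with the comparison too: all 3 B-cell markers used here (Cd79a, Ms4a1 and Pax5) were higher in every PAt and Arrested library (log2 of their summed level 10.12 to 10.66) than in every persistent library (9.06 to 9.501), as were Cd8a and Cd8b1, the 2 markers of cytotoxic T cells (summed level 10.41 to 10.70 against 9.65 to 10.18). The lowest population mean of these B-cell and cytotoxic markers in the Timer+ populations was 5.55 (Pax5 in Pers2). Whether it stands for reads cannot be told from transformed values. The part of activation state or of other cells in the result was not tested.

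The receptors and kinases of the pathway were examined through lists of related genes, which were not tested against other genes. By adjusted p, 35.9% of all tested genes were higher and 35.1% lower in this comparison. Of all genes, 4.74% were called higher and 2.77% lower. Among the 4 JAK kinases, 1 was lower by adjusted p in the persistent populations (Jak1, log2 fold change -0.21) and 1 higher (Tyk2, 0.15), and all 4 changed by less than the fold threshold (median 0.0204). Among 8 receptors of the common gamma chain family, 3 were higher and 4 lower by adjusted p. The list of receptors for the gp130 cytokines, interleukin-10, interleukin-12 and interferons had 13 measured genes, of which 3 were higher and 9 lower by adjusted p. In that list Il12rb1, the shared receptor chain for interleukin-12 and interleukin-23, was called higher (1.31), as was Il10ra (1.19), and Ifngr2, the signalling chain of the interferon gamma receptor, was called lower (-1.20). Of the 6 other STAT and SOCS genes, 2 were lower by adjusted p. Of 7 PIAS proteins and adaptor inhibitors, 2 were higher and 4 lower, and of 6 phosphatases 4 were higher, with medians of -0.162 and 0.129.

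Genes known to be induced through STATs moved both ways, as did all tested genes (35.9% higher and 35.1% lower by adjusted p). These lists were not tested against other genes. Of 15 genes induced through STAT5, 6 were higher and 7 lower by adjusted p in the persistent populations (5 and 7 of 14 without Foxp3). Gzmb, the cytotoxic protease granzyme B, was called higher (5.28), and the survival gene Bcl2 (-2.97) and the growth regulator Myc (-1.68) were called lower. Of 9 genes induced through STAT3, 4 were higher and 3 lower by adjusted p: Il10 (2.26), Maf (2.19) and Batf (1.28) were called higher, and Junb (-0.99), Bcl6 (-0.94) and Il6st (-0.70) were lower. Of 8 measured genes induced through STAT4 or STAT6, 6 were higher, with Tbx21 (1.59) and Il18rap (1.55) called, and 1 was lower (Il4ra, -0.81).

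**Figure D2:**
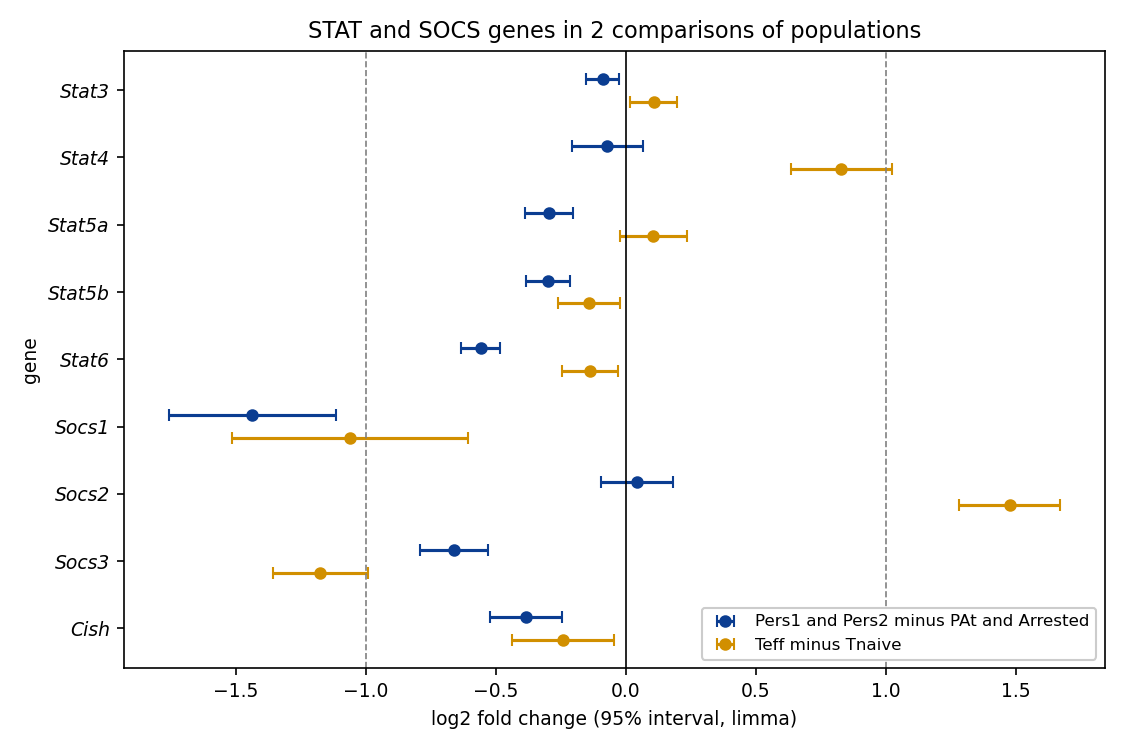
Log2 fold change (horizontal axis) of each STAT and SOCS gene (vertical axis) for Pers1 and Pers2 minus PAt and Arrested (blue) and for Teff minus Tnaive (ochre). Points are limma estimates with 95% intervals, and dashed lines mark a log2 fold change of 1 in size. Socs1 stands at -1.44 and -1.06, and Socs2 at 0.04 and 1.48.

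Within the persistent pair, Pers2 was compared with Pers1. The genes Socs2 and Cish were higher in Pers2 by 0.76 (SE 0.0933, adjusted p = 2.11e-05) and 0.75 (SE 0.0941, adjusted p = 2.62e-05), and Socs3 was higher by 0.38 (adjusted p = 0.00795), as log2 fold changes. Stat6 was lower, by -0.21 (adjusted p = 0.0112). Thus 3 of the 9 genes were higher and 1 lower by adjusted p in limma, where 6.02% of all genes were higher and 4.56% lower, and 4 had an unadjusted p under 0.05. None of the 9 was called, where 0.144% of all genes were called higher and 0.0455% lower. Socs1 differed by 0.36 with an interval of -0.09 to 0.82. The median over the 9 genes was 0.0815, beside 0.0014 over all genes. The adjusted p of Socs3 rose to 0.0527 without Pers1 replicate 2, and that of Stat6 to 0.0698 without Pers2 replicate 3.

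Within the other pair, Arrested was compared with PAt. Socs2 was lower in Arrested by -0.94 (SE 0.0933, adjusted p = 3.06e-06), or 1.91-fold, and Cish by -0.59 (SE 0.0941, adjusted p = 0.000617), or 1.502-fold. All 3 Arrested libraries lay below all 3 PAt libraries for both genes, and the share of all genes with this pattern was not determined. These 2 genes were lower and 0 higher by adjusted p in limma, where 2.97% of all genes were lower and 2.07% higher, and 2 had an unadjusted p under 0.05. None was called, where 0.0758% of all genes were called lower and 0.0455% higher. The other 7 genes had differences between -0.11 (Stat5a, interval -0.24 to 0.02) and 0.11 (Socs3, interval -0.07 to 0.30), and the median was 4e-04 over the 9 genes and -0.00698 over all genes. The widest interval was that of Socs1, from -0.36 to 0.54.

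Genes induced through STAT5 were also read in these pairs, and the list was not tested against other genes. By adjusted p, 6.02% of all genes were higher in Pers2 than in Pers1, and 2.97% were lower in Arrested than in PAt. Of the 15 listed, 7 were higher by adjusted p in Pers2 than in Pers1 (6 of 14 without Foxp3, whose reporters set the gates), among them Gzmb (0.68), Il2ra (0.65) and Tnfrsf4 (0.45), a costimulatory receptor. In Arrested 6 of the 15 were lower by adjusted p than in PAt, among them Gzmb (-0.85), Il2ra (-0.70), which encodes the high-affinity chain of the interleukin-2 receptor, Tnfrsf4 (-0.52) and Il2rb (-0.49). All 15 stayed within the fold threshold in both pairs. The Socs genes outside the 9 gave 1 such gene: Socs5 was higher by 0.27 in Pers2 than in Pers1 and lower by -0.28 in Arrested than in PAt.

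**Figure D3:**
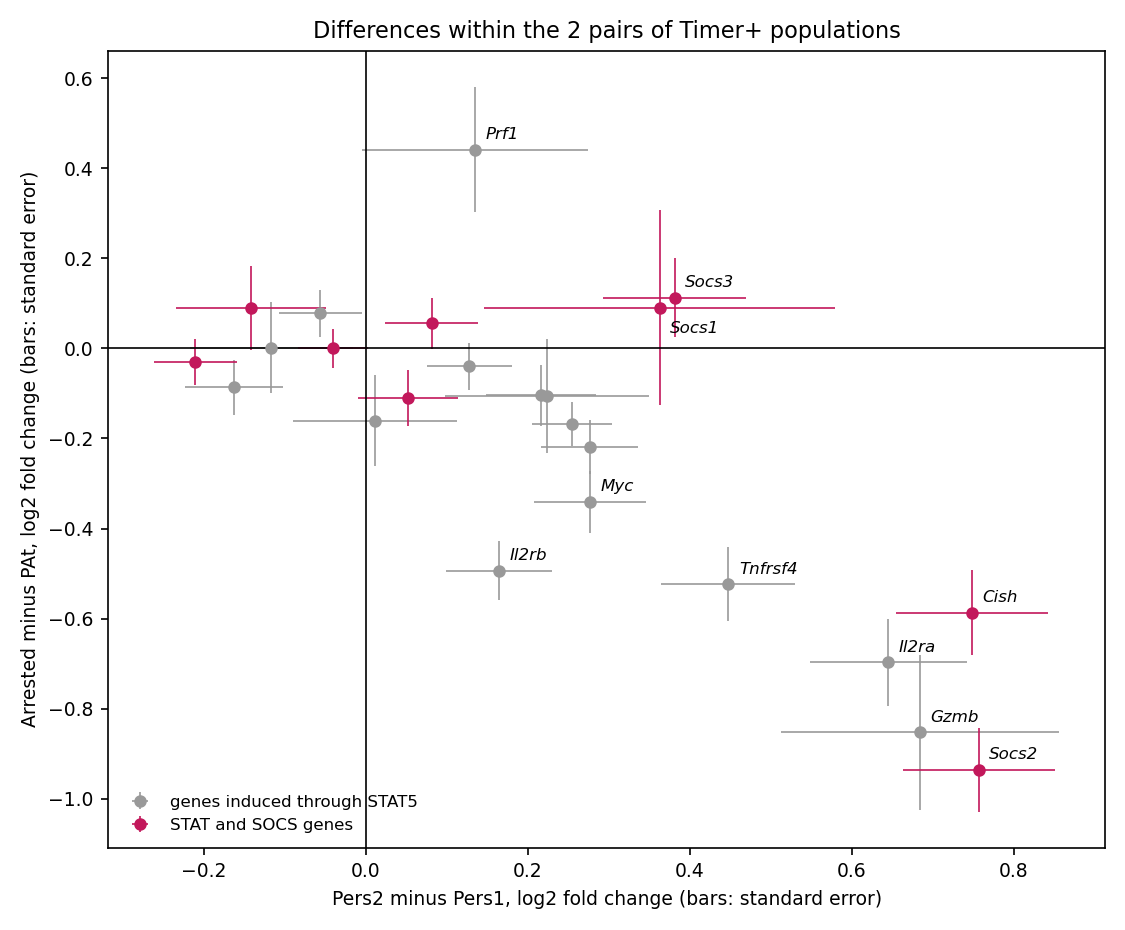
Log2 fold change between Pers2 and Pers1 (horizontal axis) and between Arrested and PAt (vertical axis) for the 9 STAT and SOCS genes (red) and 15 genes induced through STAT5 (grey). Points are limma estimates with their standard errors, and genes past 0.3 in either comparison are named. Socs2 lies at 0.76 and -0.94 and Cish at 0.75 and -0.59, whereas Socs1 and Socs3 lie above 0 on both axes.

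The Timer-negative populations were compared with each other, as activated against naive cells that both lacked GFP and Timer. In Teff 3 of the 9 genes were called, Socs2 as higher and Socs1 and Socs3 as lower, where 8.88% of all genes were called higher and 2.28% lower. By adjusted p 3 were higher and 5 lower, where 31.3% and 27.7% of all genes were, and the median was -0.139, beside 0.00472 over all genes. Socs2 was 2.78-fold higher in Teff (log2 fold change 1.48, SE 0.0933, adjusted p = 1.38e-11), although its levels stayed low in both. Socs3 was 2.26-fold lower (log2 fold change -1.18, SE 0.0882, adjusted p = 2.34e-10). Socs1 had a log2 fold change of -1.06 (SE 0.217, adjusted p = 0.00027), which fell short of the fold threshold at -0.67 without Teff replicate 2. Stat4 was higher by 0.83 (SE 0.0928, adjusted p = 1.28e-07). The log2 fold changes of Stat3 (0.11), Stat5b (-0.14), Stat6 (-0.14) and Cish (-0.24) had adjusted p-values between 0.0246 and 0.0404, and each exceeded 0.05 under at least 1 other setting, and Stat5a differed by 0.10 with an interval of -0.02 to 0.23.

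Markers of other cells were high in the Teff libraries. Of the dendritic cell markers 3 of 4 were above all other libraries in every Teff library (log2 of the summed level 11.18 to 11.72, against 6.34 to 7.04 in the other populations), and Siglech, a marker of plasmacytoid dendritic cells, stood at 10.16 to 10.93. All 4 macrophage or monocyte markers (summed level 10.63 to 10.97, against 8.21 to 9.41), both NK cell markers measured (8.05 to 8.15, against 5.05 to 6.64) and both cytotoxic T-cell markers (11.51 to 11.997, against 9.65 to 10.70) were also above all other libraries. The summed B-cell markers stood at 10.50 to 11.07 in Teff and at 8.69 to 9.02 in Tnaive. The lowest population mean among the markers was 2.76 (Ncr1 in Tnaive), and whether so low a value stands for reads cannot be told from transformed values. The part of other cells in any comparison with Teff was not tested.

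Genes of the pathway lists were called both ways between Teff and Tnaive, where 8.88% of all genes were called higher and 2.28% lower. None of the lists was tested against other genes. Jak2 was called higher in Teff (log2 fold change 1.53), as were the adaptor Sh2b2 (2.07) and the phosphatase Ptpn11 (1.40). Of the 8 common gamma chain receptors 3 were called higher, with Il9r (4.75) and Il2rb (3.74) leading, and 3 lower, with Il4ra (-2.43) leading. Of the 13 receptors in the gp130, interleukin-10, interleukin-12 and interferon list 4 were called higher, among them Lifr (2.93) and Il12rb1 (2.81), and 1 lower (Ifngr2, -1.47). Among genes induced through STAT5, 4 of 15 were called higher and 3 lower. Of those induced through STAT3, 6 of 9 were called higher (Maf 5.47 and Il21 5.42 the most), and of those induced through STAT4 or STAT6, 6 of 8 were called higher, led by Il18rap (4.18) and Il4 (3.54), and 1 lower.

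Foxp3 expressers were set against Timer-negative cells. Between the persistent populations and Teff, Socs2 was 16.8-fold higher (log2 fold change 4.07, SE 0.0808, adjusted p = 1.18e-19) and Cish 9.72-fold higher (log2 fold change 3.28, SE 0.0815, adjusted p = 5.14e-18). These 2 of 9 genes were called higher and 0 lower, where 4.28% of all genes were called higher and 4.03% lower. Socs3 was higher by 0.91 (adjusted p = 1.58e-09), and by 1.01 and called without Teff replicate 1. Stat4 and Stat6 were lower by -0.65 (adjusted p = 6.19e-07) and -0.33 (adjusted p = 1.51e-06). Socs1 was higher by 0.52 (adjusted p = 0.0226), a value that went to 0.13 (adjusted p = 0.447) without Teff replicate 2. Stat5a was higher by 0.14 (adjusted p = 0.0255), and its adjusted p passed 0.05 with median centring or quantile normalisation. In all, 5 genes were higher and 2 lower by adjusted p, beside 29.8% and 28.9% of all genes, with medians of 0.145 and -0.00251. Stat3 (-0.05, interval -0.13 to 0.03) and Stat5b (0.08, interval -0.02 to 0.19) were not past the threshold, though Stat3 was with median centring (-0.11, adjusted p = 0.0151).

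Against Tnaive, PAt and Arrested had 45.3-fold more Socs2 (log2 fold change 5.50, SE 0.0808, adjusted p = 3.32e-22) and 10.7-fold more Cish (log2 fold change 3.42, SE 0.0815, adjusted p = 1.11e-18). These 2 of 9 genes were called higher and 0 lower, where 6.63% of all genes were called higher and 1.27% lower. All but Stat6 were higher by adjusted p (8 of 9, where 26.9% of all genes were higher and 23.8% lower). The others were Socs1 (0.90, adjusted p = 0.000453), Stat5a (0.54, adjusted p = 2.35e-08), Socs3 (0.40), Stat4 (0.26), Stat5b (0.24) and Stat3 (0.14), as log2 fold changes. With median centring Stat4 (0.18, adjusted p = 0.0584) and Stat3 (0.07, adjusted p = 0.142) no longer passed. Stat6 differed by 0.09, with an interval of -0.01 to 0.18. The median was 0.397 over the 9 genes and -0.0067 over all genes. The summed markers of activated T cells stood at 13.77 to 14.04 in PAt and Arrested and at 11.54 to 11.72 in Tnaive. Those of B cells stood at 10.12 to 10.66 and at 8.69 to 9.02, whereas those of dendritic cells and of macrophages or monocytes overlapped. The part of activation state or of other cells in this comparison was not tested.

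Against Teff, PAt and Arrested had 4 of the 9 genes called higher and 0 lower, where 2.84% of all genes were called higher and 4.04% lower. They were Socs2 (4.03, adjusted p = 2.5e-19), Cish (3.67, adjusted p = 1.12e-18), Socs1 (1.96, adjusted p = 1.68e-08) and Socs3 (1.57, adjusted p = 2.63e-13), which are all of the inhibitors among the 9 genes, and each stayed called without any 1 of the 9 libraries compared. Stat5a (0.44), Stat5b (0.38) and Stat6 (0.22) were higher and Stat4 (-0.57) lower by adjusted p, which made 7 higher and 1 lower where 24.8% and 27.9% of all genes were. Stat3 differed by 0.04, from -0.04 to 0.12. The median was 0.44, beside -0.00519 over all genes. The comparisons with Teff share its 3 libraries, as do those with Tnaive, so their results are not independent of each other.

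In the pathway lists, the chains of the interleukin-2 receptor differed among themselves. Il2ra was called higher in the persistent populations than in Teff (5.08), in PAt and Arrested than in Tnaive (6.93) and in PAt and Arrested than in Teff (5.20). Il2rb had log2 fold changes of 1.22, 4.49 and 0.74 in these comparisons, the last not called, and Il2rg of 0.27, -0.12 and -0.07, none of them called. Of the 15 genes induced through STAT5, 7 were called higher in the persistent populations than in Teff and 0 lower, beside 4.28% and 4.03% of all genes, with 11 higher and 1 lower by adjusted p. Set against Tnaive, PAt and Arrested had 7 called higher and 1 lower (Prf1, the pore-forming perforin, -1.93), beside 6.63% and 1.27% of all genes, and set against Teff they had 6 called higher and 0 lower, beside 2.84% and 4.04%, with 14 higher and 1 lower by adjusted p. The list holds Foxp3, whose reporters set the gates, so that its call was fixed by the sort, and it holds Il2ra and Il2rb, which the receptor list also holds. Without Foxp3, 6, 6 and 5 of 14 genes were called higher in the 3 comparisons. The list as a whole was not tested against other genes. Jak2 was called lower than in Teff both in the persistent populations (-1.31) and in PAt and Arrested (-1.34), as was Lifr (-2.70 and -2.17). Il4ra, the interleukin-4 receptor chain that signals through STAT6, was called higher than in Teff in both (1.01 and 1.82). Il21 (-6.10 and -5.92), a cytokine gene induced through STAT3, and Il4 (-2.79 and -3.29) were called lower than in Teff in both. Of the other STAT and SOCS genes Socs5 was called, as higher in PAt and Arrested than in Tnaive (1.07).

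Whether the step from PAt and Arrested to the persistent populations resembled the step from Tnaive to Teff was tested as a difference of the 2 log2 fold changes. It was past the adjusted p of 0.05 for 6 of the 9 genes, 1 higher and 5 lower, where 23.2% of all genes were higher and 25.5% lower. Socs2 was called lower (-1.43, SE 0.114, adjusted p = 1.28e-09), the 1 called gene of the 9, where 1.52% of all genes were called higher and 6.90% lower: it was higher in Teff than in Tnaive, and the persistent populations and PAt and Arrested had means of 10.84 and 10.80. Stat4 had a difference of -0.90 (SE 0.114, adjusted p = 1.23e-06) and Socs3 of 0.51 (SE 0.108, adjusted p = 0.000492), the latter since Socs3 was lower in both steps and more so in Teff. Stat6 (-0.42), Stat5a (-0.40) and Stat3 (-0.20) also differed. The steps were not shown to differ for Cish (-0.14, interval -0.38 to 0.10), Stat5b (-0.16, interval -0.30 to -0.01, adjusted p = 0.068, but 0.0273 with the replicate block) or Socs1 (-0.38, interval -0.93 to 0.18), though that of Socs1 went to -0.77 (adjusted p = 0.0013) without Teff replicate 2. The median was -0.376 over the 9 genes and -0.00515 over all genes, and the markers of other cells in Teff given above stand beside these values too.

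The genes with the most similar course over the 18 libraries were found by Pearson correlation, as a description, since libraries of a population share its level. For Socs2 they were Il2ra (r = 0.997), Apol9b (0.988) and Ttn (0.987), and for Cish they were Lrrc32 (0.991), which encodes the TGF-beta anchor GARP, Cd81 (0.990) and Rln3 (0.987). Socs1 was nearest to Tnfrsf25 (0.946), Bbc3 (0.942) and Pde1b (0.935), and Socs3 to Ptp4a3 (0.967), Lfng (0.966) and Tnfrsf25 (0.957). The last was thus among the closest for both. Stat5a was nearest to Clip2 (0.964), Galnt14 (0.961) and Lad1 (0.956), and Stat5b to Osgin1 (0.950), Mllt6 (0.941) and Disp1 (0.937). Stat6 was nearest to Sec31a (0.961), B4galnt1 (0.960) and Xpo6 (0.955). The nearest genes of Stat4 were Plac8 (0.932), Ifi204 (0.930) and Lifr (0.926). Lifr stood at a mean of 8.17 in Teff, where markers of both activated T cells and dendritic cells were above those in Tnaive. In the other populations it stood at no more than 6.04. The part of activation state or of other cells in these similarities was not tested. Stat3 had the weakest neighbours, Syvn1 (0.858), Vps72 (0.844) and Slc1a5 (0.825). Among the 9 genes themselves, Socs2 and Cish had an r of 0.964, Socs1 and Socs3 of 0.891, Stat5a and Stat5b of 0.826, and Stat4 and Socs3 of -0.664.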

How the data were processed

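Expression was measured by stranded mRNA sequencing with paired-end reads of 100 bp in 18 libraries. Per the labels and the methods, the authors used CASAVA 1.8.2, FastQC 0.11.2, TopHat2 2.0.9 and DESeq2, with the genome mm10 either as it is or with the Timer gene added. The counter and whether counting used strand are not given in the sources used here. The values that the authors deposited were taken to be log2 normalised counts, and they resemble the regularised log of DESeq2. They cover 15402 genes (-0.02 to 18.89, of which 173 values are negative). Read counts were not analysed here, so precision rests on the 3 replicates.

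The 13190 genes with a mean of at least 3 were tested (2212 left out) with limma 3.58.1 in R 4.3.3, in a model of the 6 populations with 12 residual degrees of freedom, a variance trend and Benjamini-Hochberg adjustment. The thresholds follow the study (adjusted p under 0.05, absolute log2 fold change over 1). Its code was tested on simulated data. Filter, scaling, trend, populations fitted, fold threshold and replicate block were varied, and each library was left out.

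The 9 genes and the pathway and marker lists were chosen with earlier results of these data known. All 9 are named in every comparison, with called genes of the lists (at most the 4 largest per list and comparison) and the 3 closest genes of each. Other list genes named were chosen after their values were seen. One marker gene is not reported here. Promoter windows came from RefSeq (GRCm38.p6) and gene positions from GENCODE vM21. Figures were drawn with matplotlib 3.10.9.

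The replicate number was taken to pair libraries, since the deposited description has all populations sorted within each of the 3 replicates. Deviations from population means had a median correlation of 0.166 over 45 pairs of libraries with the same number (-0.206 to 0.436, 32 above 0.1) and of -0.064 over 90 pairs with different numbers. The methods name no block for the replicate, so the main model had none.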

Additional observations from a re-analysis of the deposited data

Results flagged for a closer look

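For 6 of the 9 genes the step from PAt and Arrested to the persistent populations differed from the step from Tnaive to Teff, by limma's test of the difference between both log2 fold changes. Of the 6, 1 was higher and 5 lower by adjusted p, where 23.2% of all tested genes were higher and 25.5% lower. The differences were -1.43 for Socs2 (adjusted p = 1.28e-09), -0.90 for Stat4 (adjusted p = 1.23e-06), 0.51 for Socs3 (adjusted p = 0.000492), -0.42 for Stat6 (adjusted p = 1.11e-05), -0.40 for Stat5a (adjusted p = 0.000175) and -0.20 for Stat3 (adjusted p = 0.00428). They rest in part on the Teff libraries, in which markers of dendritic cells, macrophages and NK cells were highest, and the part of these cells was not tested.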

How the results depend on the processing

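For the persistent populations against PAt and Arrested, the number of genes called was 1 of 9, and without the fold threshold it was 7. The corresponding numbers were 0 and 4 for Pers2 against Pers1, 0 and 2 for Arrested against PAt, 3 and 8 for Teff against Tnaive, 2 and 7 for the persistent populations against Teff, 2 and 8 for PAt and Arrested against Tnaive, 4 and 8 for PAt and Arrested against Teff, and 1 and 6 for the difference of the steps. Over all 13190 tested genes, 990, 25, 16, 1472, 1096, 1042, 908 and 1110 were called in that order. Without the fold threshold the numbers over all genes were 9357, 1395, 665, 7785, 7739, 6684, 6950 and 6420. With the replicate block the numbers of called genes among the 9 were 1, 0, 0, 3, 2, 2, 4 and 1 in the same order. The block changed no call of the 9 genes past both thresholds. By adjusted p alone it moved the difference of the steps of Stat5b from 0.068 to 0.0273. Signs turned only near 0. For the persistent populations against PAt and Arrested the difference of Socs2 was -0.022 with median centring and -0.0271 with quantile normalisation. With quantile normalisation Stat3 stood at -0.0197 between Arrested and PAt and at -0.0062 between PAt and Arrested and Teff. Leaving out 1 library at a time, the difference between Arrested and PAt ran from -0.0389 (without PAt replicate 2) to 0.0282 for Stat3, from -0.0757 to 0.0048 (without PAt replicate 1) for Stat6, and from -0.0168 (without Arrested replicate 2) to 0.228 for Socs1. Depth is unknown, so precision at low levels, as for Socs2 in Tnaive, could not be given.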
